A study of Arabidopsis thaliana with 16 samples.

Results

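The comparison described here set Arabidopsis hypocotyls with the receptor gene BRL3 driven in the phloem against wild-type hypocotyls, both grown at 28 °C. It used 4 of the 16 libraries of the series, 2 per group, and all 20505 genes that passed a low-count filter. The wild type was Col-0. The pSUC2-BRL3 line carried a BRL3-GFP fusion under the promoter of SUC2, a sucrose transporter gene of phloem companion cells, in the brl3-2 background, a T-DNA insertion mutant of BRL3 (SALK_006024C). Seedlings were 6 days old, had been kept at 28 °C throughout under days with 16 h of light, and only their hypocotyls were taken for stranded mRNA sequencing. The series also holds brl3-2 and a BRL3 overexpressor, BRL3ox, and all 4 genotypes at 22 °C, which supply the parent mutant and the other temperature. The labels call the 2 libraries of each group biological replicates without saying how they were grown, so p-values measure only the spread between these libraries. Whether the pSUC2-BRL3 line is 1 transformant was not given in the sources used here.

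Brassinosteroids are plant steroid hormones that bind receptor kinases at the cell surface, BRI1 in most tissues and BRL1 and BRL3 mainly in vascular cells. Warm ambient temperature makes hypocotyls elongate through the transcription factor PIF4, with auxin and brassinosteroid acting downstream. Heat shock proteins are chaperones that keep other proteins folded, and their genes are induced by heat stress and by unfolded proteins.

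The 4 libraries held 23024389 to 26102746 counts, within the 19013878 to 26563600 of the whole series. In the pSUC2-BRL3 group 1576 tested genes, 7.69%, lay at least 2-fold apart between replicates 1 and 2, against 626 (3.05%) in Col-0 and 623 to 1158 in the other groups except BRL3ox at 22 °C, which had 4523 (22.1%). The pSUC2-BRL3 libraries at 28 °C therefore stood farther apart than those of any other group but that one. BRL3ox at 22 °C enters the comparison through the low-count filter, the scaling and the shared estimate of spread, all made over the 16 libraries. That estimate of spread bears on how many genes are called. Levels are given below as CPM, counts scaled to a fixed library size, of each library, and differences as log2 of pSUC2-BRL3 over Col-0. A gene was called when its adjusted p in edgeR's quasi-likelihood test was under 0.05.

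BRL3 (AT3G13380, chr3:4346330-4350939 on the plus strand, TAIR10.1) stood at 22.9 and 28.7 CPM in Col-0 and at 171 and 178 CPM in pSUC2-BRL3. Both libraries of the line lay above both wild-type libraries, and the difference was 2.76 (SE 0.31, adjusted p = 0.00342). In brl3-2 the gene was at 1.04 and 0.733 CPM, and in BRL3ox at 2185 and 2477 CPM. These counts do not separate reads of the transgene from reads of the disrupted native gene. The call was lost without Col-0 replicate 1, where the difference was 2.60 (adjusted p = 0.0636). At 22 °C BRL3 was also higher in the line, by 1.80 (adjusted p = 0.00778), and the difference between temperatures was not past the threshold (adjusted p = 0.246).

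Besides the transgene, more genes were lower than higher in the line, and genes of the protein-folding machinery were 1 of several groups among the lower ones. Of the 20505 genes 176 (0.858%) were called, 47 (0.229%) higher and 129 (0.629%) lower in pSUC2-BRL3. In all 176 both libraries of one group lay above both of the other, as they did in 50.3% of all genes. At least 2-fold differences were found in 28 of the higher and 83 of the lower genes. Of the 129 lower genes 18 belonged to a chaperone or heat shock family or to the heat shock list, and of the 47 higher genes 0 did. Tested members were 110 DnaJ, 36 small heat shock protein, 20 chaperonin, 17 heat shock factor, 15 HSP70 and 7 HSP90 genes. The heat shock list held 20, some of them family members. With so small a share of the 20505 genes, the 0 among 47 is not read as a contrast. These families were drawn up after the values had been seen, so their counts are a description. HSP70, HSP90.1, Cpn60beta2, MBF1C and GolS1 lay below both Col-0 libraries in brl3-2 and BRL3ox too. So did nearly all of the 129 lower genes, and most of the 47 higher ones lay above both Col-0 libraries there. The calls were made on the same Col-0 libraries, so such sharing is a description. A difference from wild type is not by itself shown to be particular to pSUC2-BRL3. In bulk tissue a lower level cannot be divided into fewer cells of a type and less RNA per cell.

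These counts depended on single libraries. Without Col-0 replicate 1 the test called 14 genes (0.0683%), 0 of them higher (1446 genes had an unadjusted p under 0.05). Without Col-0 replicate 2 it called 34 (0.166%), without pSUC2-BRL3 replicate 1 it called 42 (0.205%) and without pSUC2-BRL3 replicate 2 it called 299 (1.46%). Of the 176 calls 13 held in all 4 of these fits, every one of them lower in the line. Leaving out BRL3ox replicate 2 at 22 °C, chosen after seeing the data, gave 1051 calls (5.13%), 421 higher and 630 lower, with all 176 among them. DESeq2 called 686 genes (3.35%), 273 higher and 413 lower, and these also included the 176.

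**Figure D1:**
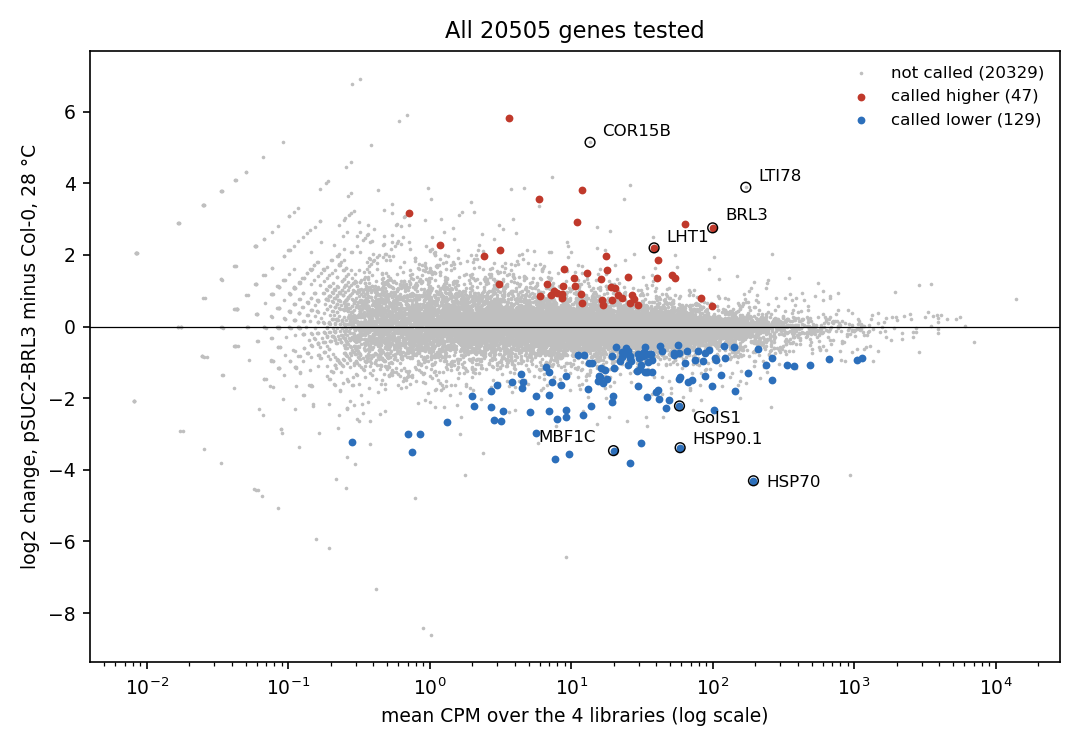
Each point is 1 of the 20505 tested genes, with its mean level in the 4 libraries on the x axis (CPM, log scale) and the log2 difference of pSUC2-BRL3 over Col-0 at 28 °C on the y axis. The called genes are coloured, and the 129 lower ones, HSP70 at -4.31 among them, outnumber the 47 higher ones.

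The largest fall among genes that the naming rule covered was in HSP70 (AT3G12580), a cytosolic chaperone gene. HSP70 stood at 390 and 350 CPM in Col-0 and at 23.7 and 13.7 CPM in pSUC2-BRL3. Its difference of -4.31 (SE 0.88) was only just past the threshold (adjusted p = 0.0492). This call was lost when any 1 of the 4 libraries was left out (-4.75 to -3.97, adjusted p = 0.146 to 0.226). HSP70 was at 68.2 and 84.7 CPM in brl3-2 and at 22.6 and 18.9 CPM in BRL3ox, so Col-0 was the highest of the 4 genotypes at 28 °C. HSP70T-2 (AT2G32120), a second member of the family, went from 23.8 and 22.3 CPM to 8.44 and 7.80 CPM (-1.51, SE 0.18, adjusted p = 0.00438), a call lost without Col-0 replicate 1 (-1.46, adjusted p = 0.0609). Of the 15 tested HSP70 family genes 2 were called, and 14 had estimates below 0, with a median of -1.21 against 0.00 over all genes. Uncalled members included HSC70-1 (AT5G02500), the abundant constitutive form, at 1945 and 1613 CPM in Col-0 and 902 and 938 CPM in pSUC2-BRL3 (-0.95, adjusted p = 0.161). BIP1 (AT5G28540), the form of the endoplasmic reticulum, was at 215 and 232 CPM against 103 and 84.6 CPM (-1.25, adjusted p = 0.0683). Without BRL3ox replicate 2 at 22 °C, 11 of the 15 were called lower.

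HSP90 chaperones showed the same direction in every member. All 7 tested genes had estimates below 0, with a median of -1.51, and 4 were called lower. HSP90.1 (AT5G52640), the heat-inducible cytosolic form, stood at 107 and 109 CPM in Col-0 and at 12.9 and 7.76 CPM in pSUC2-BRL3, a difference of -3.38 (SE 0.45, adjusted p = 0.00674). Its levels in brl3-2 were 30.3 and 29.99 CPM and in BRL3ox 16.2 and 13.2 CPM. CR88 (AT2G04030), the plastid form, was at 378 and 401 CPM against 110 and 164 CPM (-1.51, adjusted p = 0.0373). Hsp89.1 (AT3G07770) was at 98.3 and 102 CPM against 35.0 and 34.1 CPM (-1.54, adjusted p = 0.0424). SHD (AT4G24190), the form of the endoplasmic reticulum, changed least of the 4 called, from 240 and 269 CPM to 166 and 161 CPM (-0.64, adjusted p = 0.0479). In these 4 genes the Col-0 libraries and the pSUC2-BRL3 libraries did not overlap. The call of HSP90.1 was lost without Col-0 replicate 1 (-3.40, adjusted p = 0.059), that of CR88 without every library but pSUC2-BRL3 replicate 2 (-1.55 to -1.24, adjusted p = 0.195 to 0.207), and those of Hsp89.1 (-1.57 to -1.51) and SHD (-0.72 to -0.55) without any 1 of the 4.

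A pair of disaggregase genes and 3 chaperonin genes were also called lower. HSP101 (AT1G74310), which pulls aggregated proteins apart in the cytosol, went from 23.3 and 22.0 CPM to 5.39 and 4.32 CPM (-2.22, SE 0.33, adjusted p = 0.0123). CLPB4 (AT2G25140), its mitochondrial relative, went from 30.8 and 31.7 CPM to 7.10 and 9.10 CPM (-1.95, adjusted p = 0.0132). Among chaperonins 3 of 20 tested genes were called, the median over the 20 was -0.20, and 6 of the 20 had estimates above 0. The plastid subunit gene Cpn60beta2 (AT3G13470) stood at 158 and 184 CPM in Col-0 and at 27.7 and 39.9 CPM in the line (-2.34, SE 0.34, adjusted p = 0.0109), with 86.6 and 85.3 CPM in brl3-2 and 24.4 and 29.6 CPM in BRL3ox. HSP60 (AT3G23990), of mitochondria, was at 81.4 and 88.2 CPM against 31.9 and 32.6 CPM (-1.40, adjusted p = 0.0368). CPN20 (AT5G20720), the plastid co-chaperonin, was at 337 and 343 CPM against 165 and 206 CPM (-0.87, adjusted p = 0.0219). Folding machines of the cytosol, the plastid and the mitochondria were thus all among the called genes. The calls of HSP101, CLPB4, Cpn60beta2 and CPN20 held only without pSUC2-BRL3 replicate 2. Without the other 3 libraries in turn HSP101 lay between -2.39 and -2.18, CLPB4 had adjusted p = 0.0914 to 0.106, Cpn60beta2 lay between -2.44 and -2.10 and CPN20 between -0.89 and -0.73. That of HSP60 was lost without any 1 of the 4 (-1.45 to -1.34).

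**Figure D2:**
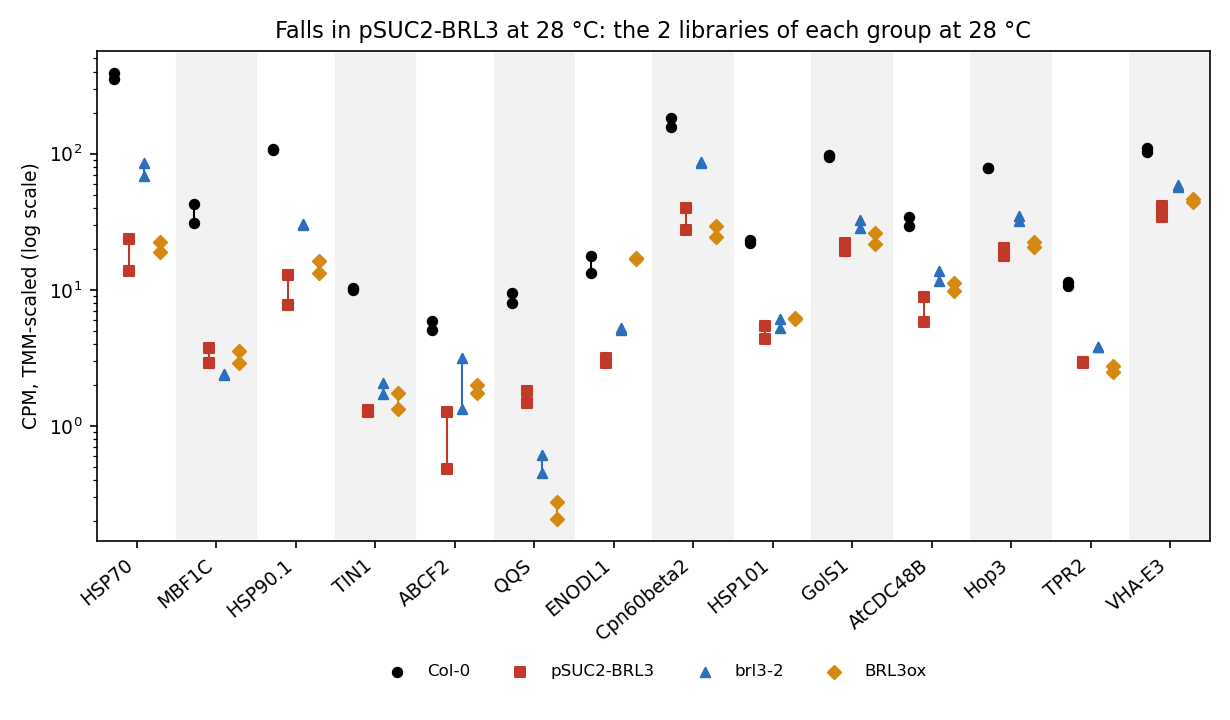
Points show the CPM of single libraries at 28 °C (log scale on the y axis) for genes that were lower in pSUC2-BRL3, with the 2 libraries of each of the 4 genotypes in one colour and joined by a line. In each gene drawn both pSUC2-BRL3 points lie below both Col-0 points, from 390 and 350 CPM to 23.7 and 13.7 CPM in HSP70.

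Several single genes whose products work with chaperones or regulate heat tolerance were called lower. They were not drawn from one list, and of those given here only MBF1C is on the heat shock list. The DnaJ co-chaperones and heat shock factors as families gave few calls. MBF1C (AT3G24500), a transcriptional coactivator of heat tolerance, stood at 42.5 and 30.7 CPM in Col-0 and at 3.74 and 2.88 CPM in pSUC2-BRL3 (-3.47, SE 0.40, adjusted p = 0.00342). Its level in brl3-2, 2.37 and 2.41 CPM, and in BRL3ox, 3.57 and 2.88 CPM, was close to that of the line. TPR2 (AT1G04130), a tetratricopeptide repeat protein gene, went from 11.4 and 10.6 CPM to 2.88 and 2.94 CPM (-1.92, SE 0.19, adjusted p = 0.00227). AtCDC48B (AT3G53230), an ATPase gene of the class that extracts proteins for degradation, went from 29.2 and 34.0 CPM to 8.78 and 5.79 CPM (-2.12, SE 0.25, adjusted p = 0.00418). These 3 calls held whichever of the 4 libraries was left out. The co-chaperone gene Hop3 (AT4G12400), which links HSP70 to HSP90, stood at 78.7 and 78.6 CPM against 20.3 and 17.602 CPM (-2.05, SE 0.28, adjusted p = 0.00739) and kept its call only without pSUC2-BRL3 replicate 2 (-2.16 to -2.05 in the other 3 fits). HIP1 (AT4G22670), an HSP70-interacting protein gene, was at 137 and 134 CPM against 78.6 and 68.4 CPM (-0.88, adjusted p = 0.00438). SGT1A (AT4G23570), an HSP90 co-chaperone gene, was at 47.8 and 46.2 CPM against 20.3 and 18.97 CPM (-1.26, adjusted p = 0.00544). Both lost the call without Col-0 replicate 1 (-0.86 and -1.24, adjusted p = 0.0627 and 0.0636).

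Not every heat gene was called. Of the 20 genes on the heat shock list 4 were called lower (HSP70, HSP90.1, HSP101 and MBF1C) and 0 higher, with a median of -0.74, or -0.80 and -1.07 in pSUC2-BRL3 replicates 1 and 2 against the Col-0 mean. Of 36 small heat shock protein genes 4 were called lower, and their median was -0.18. DnaJ co-chaperones gave 2 lower calls of 110 (median 0.03), and heat shock transcription factors 1 of 17 (median -0.07). The factor called was AT-HSFB2B (AT4G11660), at 7.25 and 6.48 CPM in Col-0 and 1.44 and 2.71 CPM in pSUC2-BRL3 (-1.72, adjusted p = 0.0486), a call that held only without pSUC2-BRL3 replicate 2 (-1.80 to -1.34 in the other 3 fits). The called falls lay in single members of several chaperone families, while most small heat shock proteins, DnaJ proteins and heat shock factors were not called.

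Heat shock factors bind repeats of GAA and TTC known as heat shock elements. A motif of 3 such units, GAANNTTCNNGAA, was searched on both strands from 250 bases before to 50 bases after each RefSeq gene start (TAIR10.1), a search chosen after the called genes were known. It was found at 132 of 27443 nuclear protein-coding genes (0.481%), at 9 of the 127 genes called lower that had such a window (7.09%) and at 0 of 46 called higher. On the heat shock list 5 of 20 held it, in the HSP70 family 3 of 15, among HSP90 genes 0 of 7 and among chaperonins 0 of 20. The shorter GAANNTTC, which the longer motif contains, was found at 11.6% of all genes and 18.1% of those called lower. Other motifs were also more frequent among genes called lower than among the 19862 tested genes with a window. The G-box CACGTG was at 19 of the 127 genes called lower against 9.04% of those tested, the brassinosteroid-response element CGTGTG at 18 of the 127 (14.2%) against 6.78%, and the abscisic acid element ACGTGNC, which can overlap the G-box, likewise at 19 of the 127 against 11.8%. The element CGTGCG was at 0 of the 127 against 2.09%, and the evening element AAATATCT at 5.51% against 5.94%. Of the 9 matches 8 are printed because they show the letters behind this count, each read 5′ to 3′ on the gene's strand with the match in capitals. The coordinates, in the same order, are chr3:3993846-3993874 (minus), chr2:19370479-19370728 (minus), chr3:19723346-19723374 (plus), chr4:7341319-7341347 (minus), chr1:2260138-2260159 (minus), chr1:13192611-13192639 (plus), chr4:5828522-5828550 (plus) and chr2:11777564-11777592 (minus). GolS1 is given with the full 250 bases before its start.
HSP70: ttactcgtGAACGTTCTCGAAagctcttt
GolS1: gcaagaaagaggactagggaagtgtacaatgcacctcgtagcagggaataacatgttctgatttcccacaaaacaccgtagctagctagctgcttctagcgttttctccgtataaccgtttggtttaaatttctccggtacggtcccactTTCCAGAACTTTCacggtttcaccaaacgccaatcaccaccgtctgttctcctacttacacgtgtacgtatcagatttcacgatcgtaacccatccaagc
AtCDC48B: atttacacTTCTCGAATCTTCtttttctt
Hop3: aaaaattcGAAATTTCGAGAActctcttg
SR45a: gtccgactTTCCCGAAGCTTCt
AT1G35660: taaacaagTTCTCGAATGTTCgccggaga
AT4G09150: tgctttcaGAAATTTCCAGAAattacggg
AT2G27580: gtaggtgcTTCTGGAATCTTCaacgctag
These 8 genes differed by -4.31 for HSP70, -2.22 for GolS1, -2.12 for AtCDC48B, -2.05 for Hop3, -1.96 for the splicing factor gene SR45a (AT1G07350), -1.15 for AT1G35660, -0.66 for AT4G09150 and -0.56 for AT2G27580. A match is a run of letters and not a shown binding site, and HSP90.1 and MBF1C had none in this window. The 3 genes given by locus code are named here only for their matches, after their values had been seen.

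Outside the folding machinery GolS1 and VHA-E3 were among the genes called lower. GolS1 (AT2G47180), the galactinol synthase gene that starts raffinose synthesis, stood at 94.0 and 98.0 CPM in Col-0 and at 19.1 and 22.2 CPM in pSUC2-BRL3 (-2.22, SE 0.21, adjusted p = 0.00227). It was at 28.6 and 32.5 CPM in brl3-2 and at 26.1 and 21.7 CPM in BRL3ox. VHA-E3 (AT1G64200), a subunit gene of the vacuolar proton pump, stood at 110 and 102 CPM against 34.3 and 41.2 CPM (-1.49, SE 0.15, adjusted p = 0.00227). In both genes the groups did not overlap, and both calls held whichever of the 4 libraries was left out. The rule also named TIN1 (AT5G64510), induced by stress of the endoplasmic reticulum, at 10.3 and 9.92 CPM against 1.27 and 1.31 CPM (-2.97, adjusted p = 0.00567). QQS (AT3G30720), an orphan gene linked to starch content, was at 9.42 and 7.93 CPM against 1.47 and 1.81 CPM (-2.40, adjusted p = 0.00567), with less than 1 CPM in brl3-2 and BRL3ox. ENODL1 (AT5G53870), an early nodulin-like gene, was at 17.59 and 13.2 CPM against 2.88 and 3.18 CPM (-2.34, adjusted p = 0.00532), whereas BRL3ox held 16.7 and 17.2 CPM. ABCF2 (AT5G09930), an ABC-type protein gene, was at 5.05 and 5.90 CPM against 0.480 and 1.27 CPM (-2.63, adjusted p = 0.0299). The calls of TIN1 (-2.94 and -2.95), QQS (-2.27 and -2.26) and ENODL1 (-2.12 and -2.27) were lost without Col-0 replicate 1 or pSUC2-BRL3 replicate 1, and that of ABCF2 without any library but pSUC2-BRL3 replicate 2 (-2.74 to -2.10).

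Water channels and jacalin-related lectins were a further pair of groups with lower members, both drawn up after the values were seen. Of 13 plasma membrane aquaporins, which carry water into cells, 3 were called lower and 12 had estimates below 0, with a median of -0.79 that was nearly the same in pSUC2-BRL3 replicate 1 (-0.79) and replicate 2 (-0.81). RD28 (AT2G37180) stood at 45.4 and 45.3 CPM in Col-0 and at 12.9 and 15.9 CPM in pSUC2-BRL3 (-1.65, adjusted p = 0.00544). PIP2A (AT3G53420) was at 1462 and 1267 CPM against 732 and 701 CPM (-0.93, adjusted p = 0.0116), and PIP1B (AT2G45960) at 1586 and 1368 CPM against 849 and 752 CPM (-0.88, adjusted p = 0.0154). The parent mutant was also low, with RD28 at 16.8 and 11.7 CPM and PIP2A at 714 and 605 CPM. Of 6 jacalin-related lectin genes 3 were called lower and all 6 had estimates below 0, with a median of -0.82. JAL34 (AT3G16460) was at 637 and 677 CPM against 324 and 304 CPM (-1.06, adjusted p = 0.0262), and JAL33 (AT3G16450) at 451 and 465 CPM against 208 and 224 CPM (-1.09, adjusted p = 0.0312). A separate gene, NAI2 (AT3G15950), which the formation of endoplasmic reticulum bodies requires, was at 868 and 878 CPM against 497 and 427 CPM (-0.92, adjusted p = 0.0204). In each of these genes the groups did not overlap. RD28 lost its call without Col-0 replicate 1 (-1.65) or pSUC2-BRL3 replicate 1 (-1.51), PIP2A (-1.03 to -0.82) and PIP1B (-0.99 to -0.77) kept it only without pSUC2-BRL3 replicate 2, and JAL33 (-1.15 to -1.03), JAL34 (-1.11 to -1.02) and NAI2 (-1.03 to -0.82) lost it without any 1 of the 4.

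Brassinosteroid and growth genes gave few calls. BRL3 was the only one of 7 receptor genes called, and BRI1 (AT4G39400), the main receptor, was at 297 and 291 CPM against 213 and 229 CPM (-0.41, adjusted p = 0.125). Of 10 biosynthesis genes 9 had estimates below 0 (median -0.33) and 1 was called, BR6OX2 (AT3G30180), which makes brassinolide in the last step of the pathway. It stood at 41.7 and 41.2 CPM in Col-0 and at 14.5 and 20.2 CPM in pSUC2-BRL3 (-1.25, SE 0.22, adjusted p = 0.0268), and at 3.77 and 4.37 CPM in BRL3ox. None of 12 signalling genes (median -0.29) and none of 25 genes of the PIF4 route (median -0.27) was called. Estimates were below 0 in 10 of the 12 and in 21 of the 25, against 10131 of all 20505 genes. PIF4 (AT2G43010) itself was at 180 and 166 CPM against 139 and 148 CPM (-0.27, adjusted p = 0.665), and HFR1 (AT1G02340), its inhibitor, at 73.8 and 61.1 CPM against 41.0 and 40.1 CPM (-0.73, adjusted p = 0.172). Among 20 auxin genes the influx carrier gene LAX3 (AT1G77690) was called, at 55.2 and 53.0 CPM against 31.9 and 35.5 CPM (-0.68, adjusted p = 0.0279). The median of the auxin genes was -0.56, and 16 of the 20 had estimates below 0. Among 19 gibberellin genes GASA1 (AT1G75750), a hormone-regulated peptide gene, was called, at 480 and 550 CPM against 256 and 226 CPM (-1.10, adjusted p = 0.0296), with a list median of -0.12. None of 21 expansin and xyloglucan enzyme genes on the list was called (median -0.45), and 17 of the 21 had estimates below 0. Without any library but pSUC2-BRL3 replicate 2 the calls of BR6OX2 (-1.26 to -1.03) and LAX3 (-0.71 to -0.61) were lost, and GASA1 lost its call without any 1 of the 4 (-1.19 to -0.998).

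No gene of the phloem list was called. SUC2 (AT1G22710), whose promoter drives the transgene, was at 79.2 and 79.3 CPM in Col-0 and at 94.7 and 99.7 CPM in pSUC2-BRL3 (0.29, adjusted p = 0.503). PP2-A1 (AT4G19840), a phloem lectin gene, was at 31.5 and 31.1 CPM against 37.7 and 50.1 CPM (0.49, adjusted p = 0.22). None of 18 phloem genes (median -0.12) and none of 18 xylem genes (median -0.48) was called. Of the phloem genes 7 had estimates above 0, SUC2 and PP2-A1 among them, and 11 had estimates below 0. SUC2 and the xylem protease gene XCP2 were counted in all 4 libraries, so both vascular tissues were present. Of 12 root markers 6 passed the filter, with a median of -0.18 and 0 called. CASP1 had 1105 and 688 counts in Col-0 and 726 and 535 in pSUC2-BRL3, and SCR had 1198 and 1141 against 1096 and 1103. SHR and PHT1;4 were also counted in all 4 libraries, whereas COBL9 and RCPG1 had 0 counts in the 4.

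**Figure D3:**
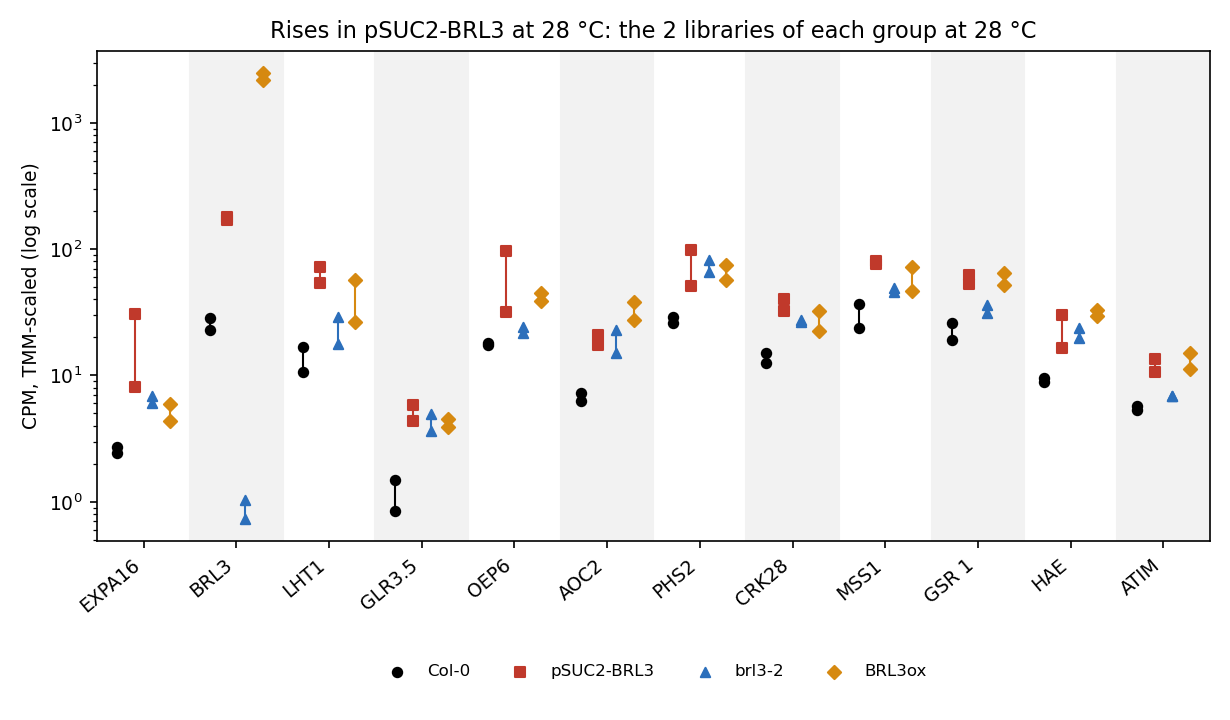
Points show the CPM of single libraries at 28 °C (log scale on the y axis) for genes that were higher in pSUC2-BRL3, with the 2 libraries of each of the 4 genotypes in one colour and joined by a line. Both pSUC2-BRL3 points lie above both Col-0 points in each gene drawn, with the widest gap between the pair in EXPA16 (30.8 and 8.13 CPM) and OEP6 (95.9 and 31.9 CPM).

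Rises were fewer, and those named included an amino acid carrier, a sugar carrier and single genes of nitrogen and starch metabolism. LHT1 (AT5G40780), an amino acid importer gene, stood at 10.7 and 16.9 CPM in Col-0 and at 54.0 and 72.7 CPM in pSUC2-BRL3 (2.198, SE 0.37, adjusted p = 0.0219), with 29.3 and 17.7 CPM in brl3-2 and 56.7 and 26.7 CPM in BRL3ox. MSS1 (AT5G26340), the hexose importer gene also called STP13, was at 23.8 and 37.0 CPM against 75.7 and 80.8 CPM (1.37, SE 0.23, adjusted p = 0.0219). GSR 1 (AT5G37600), a cytosolic glutamine synthetase gene, was at 18.9 and 26.1 CPM against 62.7 and 52.9 CPM (1.36, SE 0.22, adjusted p = 0.0189). In these 3 genes Col-0 replicate 1 was the lowest library and the groups did not overlap. GLR3.5 (AT2G32390), a glutamate receptor-like channel gene, was at 0.853 and 1.48 CPM against 4.39 and 5.82 CPM (2.13, adjusted p = 0.0296). PHS2 (AT3G46970), a cytosolic glucan phosphorylase gene of starch breakdown, was at 26.1 and 29.0 CPM against 98.8 and 51.3 CPM (1.45, adjusted p = 0.0373). LHT1 (1.91 to 2.56) and GLR3.5 (1.78 to 2.57) lost their calls without any 1 of the 4 libraries. MSS1 kept its call only without Col-0 replicate 2 (1.08 to 1.41 in the other 3 fits), and GSR 1 (1.15 to 1.61) and PHS2 (0.90 to 1.52) only without pSUC2-BRL3 replicate 2.

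The other named rises were single genes and a pair of neighbouring paralogs. AOC2 (AT3G25770), an allene oxide cyclase gene of jasmonate synthesis, stood at 6.27 and 7.28 CPM in Col-0 and at 17.5 and 20.9 CPM in pSUC2-BRL3 (1.51, SE 0.21, adjusted p = 0.00983), and its neighbour AOC1 (AT3G25760) at 6.10 and 4.74 CPM against 9.98 and 11.01 CPM (0.95, adjusted p = 0.0302). These 2 genes are close paralogs, so reads may have been split between them. They were the 2 called of 18 jasmonate genes, whose median was 0.11. CRK28 (AT4G21400), a cysteine-rich receptor kinase gene, was at 15.1 and 12.6 CPM against 32.2 and 40.6 CPM (1.40, adjusted p = 0.00829). HAE (AT4G28490), a receptor kinase gene of organ shedding, was at 8.89 and 9.49 CPM against 30.2 and 16.4 CPM (1.34, adjusted p = 0.0424). EXPA16 (AT3G55500), an expansin gene, was at 2.69 and 2.43 CPM against 30.8 and 8.13 CPM (2.92, SE 0.57, adjusted p = 0.0424), and the difference was 1.67 without pSUC2-BRL3 replicate 1. It is not on the expansin list, where most estimates were below 0. OEP6 (AT3G63160), of the plastid outer envelope, was at 18.0 and 17.5 CPM against 95.9 and 31.9 CPM (1.85, adjusted p = 0.0496), and 0.85 without that library. ATIM (AT5G52910), the TIMELESS homologue, was at 5.32 and 5.76 CPM against 13.5 and 10.6 CPM (1.12, adjusted p = 0.0312). HAE (0.84 to 1.39), EXPA16 (1.67 at the lowest), OEP6 (0.85 to 1.87) and ATIM (0.94 to 1.18) kept their calls only without pSUC2-BRL3 replicate 2, AOC2 (1.40 and 1.62) and CRK28 (1.54 and 1.27) lost theirs without either Col-0 library, and AOC1 without any 1 of the 4 (0.78 to 1.15).

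Cold-regulated genes set the 2 pSUC2-BRL3 libraries apart, with replicate 1 the higher. Over all genes that lay at least 2-fold apart between them, 530 were higher in replicate 1 and 1046 in replicate 2. LTI78 (AT5G52310), a classic gene of the cold response, was at 21.4 and 21.9 CPM in Col-0, at 596 CPM in pSUC2-BRL3 replicate 1 and at 47.1 CPM in replicate 2 (3.89, SE 0.93, adjusted p = 0.093). COR15A (AT2G42540) was at 3.28 and 4.02 CPM in Col-0 and at 83.6 and 3.01 CPM in the line, and KIN2 (AT5G15970) at 45.7 and 38.4 CPM against 297 and 29.5 CPM. Replicate 1 was the highest of the 4 libraries in these genes. In LTI78 replicate 2 also lay above both Col-0 libraries, and in COR15A and KIN2 replicate 2 lay below both Col-0 libraries. Summed over the 19 tested genes of the cold-regulated list, CPM was 1001 and 1026 in Col-0, 3629 in pSUC2-BRL3 replicate 1 and 967 in replicate 2. At 28 °C the sums were 1149 and 1349 in brl3-2 and 1686 and 2143 in BRL3ox. List medians against the Col-0 mean were 0.37 and 1.06 in brl3-2 and 0.91 and 2.00 in BRL3ox. Values above Col-0 and a gap between replicates thus also occurred there, with replicate 2 the higher. In pSUC2-BRL3 the list median was 2.48 in replicate 1 and -0.05 in replicate 2, and 0 of the 19 were called. Without pSUC2-BRL3 replicate 2 edgeR called 6 of them higher, and without replicate 1 the median difference was -0.05 with 0 called. LEA7 (AT1G52690), a dehydration protective protein gene, was at 2.69 and 3.66 CPM against 93.5 and 4.35 CPM, and HAI1 (AT5G59220), a phosphatase gene of abscisic acid signalling, at 9.65 and 9.12 CPM against 47.5 and 4.22 CPM. The abscisic acid list differed less, with medians of 0.58 in replicate 1 and -0.13 in replicate 2, with 0 of 22 called. Its medians were 0.26 and 0.41 in brl3-2 and 0.37 and 0.68 in BRL3ox.

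LTI78 is known for its C-repeat elements, bound by the CBF cold regulators, with the core CCGAC. The 250 bases before its start (chr5:21240467-21240716, plus strand) are printed because they hold 3 of its 4 matches, here in capitals.
LTI78: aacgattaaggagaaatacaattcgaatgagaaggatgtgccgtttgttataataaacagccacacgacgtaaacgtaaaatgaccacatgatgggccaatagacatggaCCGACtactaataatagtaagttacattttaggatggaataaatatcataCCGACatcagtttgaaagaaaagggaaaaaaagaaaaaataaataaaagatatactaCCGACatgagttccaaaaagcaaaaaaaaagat
The core, searched on both strands in the same windows, was found at 4130 of the 27443 genes, at 15.7% of genes called lower, at 15.2% of genes called higher and at 6 of the 20 genes on the cold-regulated list.

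Other genes split the replicates the opposite way. CRA1 (AT5G44120), a seed storage protein gene, was at 27.8 and 25.7 CPM in Col-0 and at 1.10 and 49.4 CPM in pSUC2-BRL3 replicates 1 and 2. M17 (AT2G41260), a late embryogenesis gene, was at 14.9 and 28.4 CPM against 11.5 and 161 CPM, and MLS (AT5G03860), the malate synthase gene of seed oil use, at 15.4 and 23.8 CPM against 11.2 and 68.9 CPM. Replicate 2 was above the other 3 libraries in these genes. CRA1 did not stand for the seed storage list, whose medians against the Col-0 mean were -2.27 and -2.14 in replicates 1 and 2, with 9 of 10 estimates below 0 and 0 of 10 called. Summed over the list, CPM was 72.4 and 48.9 in Col-0 and 8.54 and 57.7 in the line, and CRA1 made up 49.4 of that last sum. Aliphatic glucosinolate genes had medians of -0.97 in replicate 1 and 1.41 in replicate 2, with 0 of 18 called. The morning clock genes also differed in size between the 2 libraries, with medians of -1.80 and -0.32. CCA1 (AT2G46830), a core morning gene, was at 237 and 214 CPM in Col-0 and at 37.0 and 91.9 CPM in the line (-1.80, SE 0.34, adjusted p = 0.0368), and it was at 75.2 and 96.3 CPM in brl3-2. All 9 morning genes had both pSUC2-BRL3 libraries below both Col-0 libraries, with 2 called, against 25.4% of all genes in that position. The call of CCA1 held only without pSUC2-BRL3 replicate 2 (-1.88 to -1.29 in the other 3 fits). Photosynthesis genes had medians of -0.04 and 0.40, with 0 of 23 called. The HSP90 family had medians of -1.52 and -1.24 and the HSP70 family of -1.03 and -1.40 in replicates 1 and 2. Both families were drawn up after the values had been seen, so this likeness of the libraries is a description. Whether the hour of sampling, seedling stage or handling differed between the 2 libraries was not tested.

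**Figure D4:**
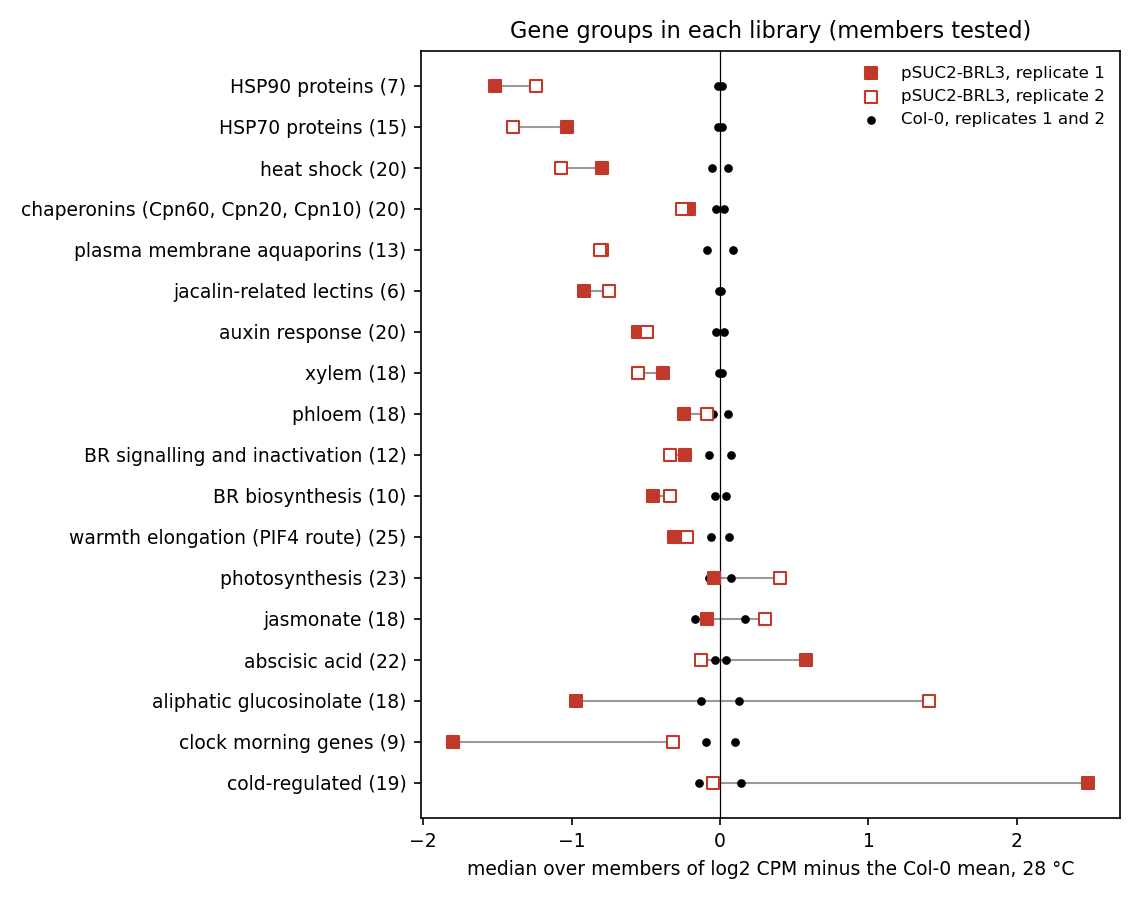
Each point is the median over the tested genes of a list, as log2 CPM of 1 pSUC2-BRL3 library at 28 °C minus the Col-0 mean, with replicate 1 as filled squares, replicate 2 as open squares, the 2 Col-0 libraries as black dots and the number of genes tested in brackets. Both squares of the HSP90, HSP70, aquaporin and lectin families lie well below the Col-0 dots, whereas the cold-regulated list is at 2.48 in replicate 1 and -0.05 in replicate 2.

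The levels in the parent mutant show how far the line lay from it. Against brl3-2 at 28 °C 330 genes (1.61%) were called, 68 higher and 262 lower in pSUC2-BRL3. BRL3 was the clearest, 7.61 higher in the line (SE 0.41, adjusted p = 1.34e-05). MBF1C (0.47, adjusted p = 0.607), GolS1 (-0.56, adjusted p = 0.201), HSP101 (-0.23, adjusted p = 0.778), AOC2 (0.02, adjusted p = 0.976) and RD28 (0.01, adjusted p = 0.988) were not past the threshold, which does not show that line and mutant were alike. HSP70 was at 68.2 and 84.7 CPM in brl3-2, above both libraries of the line, but the difference of -2.03 (SE 0.80) was not called (adjusted p = 0.241). NAI2 was called, at 706 and 834 CPM in brl3-2 against 497 and 427 CPM in the line (-0.74, adjusted p = 0.0391). The comparisons of pSUC2-BRL3, brl3-2 and BRL3ox with wild type share the 2 Col-0 libraries, so a low or high value in those 2 moves all of them. Most of the 176 genes called against Col-0 lay on the same side of both Col-0 libraries in brl3-2 and in BRL3ox. Defence lists differed in the mutant, with a median against Col-0 of 1.89 over 18 genes of pattern-triggered immunity, against 0.28 in pSUC2-BRL3, where 0 of the 18 were called.

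At 22 °C the line was compared with Col-0 in 4 other libraries. There 2176 genes (10.6%) were called, 1035 higher and 1141 lower. Of the 176 genes called at 28 °C 42 were called at 22 °C in the same direction and 14 in the opposite one. The difference between temperatures itself was called for 400 genes (1.95%). HSP101 was lower at both temperatures by the same amount, -2.22 at 28 °C and -2.21 at 22 °C (adjusted p = 0.00512, difference -0.01, adjusted p = 0.995), as was QQS (-2.40 and -2.24). HSP90.1 was also lower at 22 °C (-1.85, adjusted p = 0.0241), where Col-0 held 45.6 and 34.1 CPM and the line 9.90 and 12.2 CPM.

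For other genes the line's difference depended on temperature. The genes given here were chosen among those called at 28 °C, and that difference is part of the contrast. VHA-E3 was higher in the line at 22 °C, at 82.0 and 92.4 CPM against 37.2 and 46.5 CPM (1.06, adjusted p = 0.00399), and lower at 28 °C, a difference between temperatures of -2.55 (SE 0.21, adjusted p = 0.00114). NAI2 (0.57 at 22 °C, adjusted p = 0.0364) and MEB1 (AT4G27860), another gene of endoplasmic reticulum bodies (0.69 at 22 °C and -0.74 at 28 °C), changed sign in the same way (differences of -1.49 and -1.43, adjusted p = 0.011 and 0.00673). THE1 (AT5G54380), a receptor kinase gene that senses wall integrity, was at 136 and 140 CPM in Col-0 and 72.3 and 72.7 CPM in the line at 28 °C (-0.93) and 0.69 higher in the line at 22 °C (difference -1.62, adjusted p = 0.0143). The aquaporins RD28 (difference -1.40, adjusted p = 0.0378) and PIP2A (-1.10, adjusted p = 0.0228) were called lower at 28 °C and not at 22 °C (-0.25 and 0.17). Among the rises LHT1 was at 9.43 and 12.5 CPM in Col-0 and 5.54 and 5.32 CPM in the line at 22 °C (-1.01, adjusted p = 0.12). OEP6 held 356 and 301 CPM in Col-0 and 130 and 157 CPM in the line at 22 °C (-1.19, adjusted p = 0.0598), far above its levels at 28 °C. The calls at 28 °C of MEB1 (-0.77 to -0.71) and THE1 (adjusted p = 0.0692 to 0.212) were lost without any 1 of the 4 libraries.

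**Figure D5:**
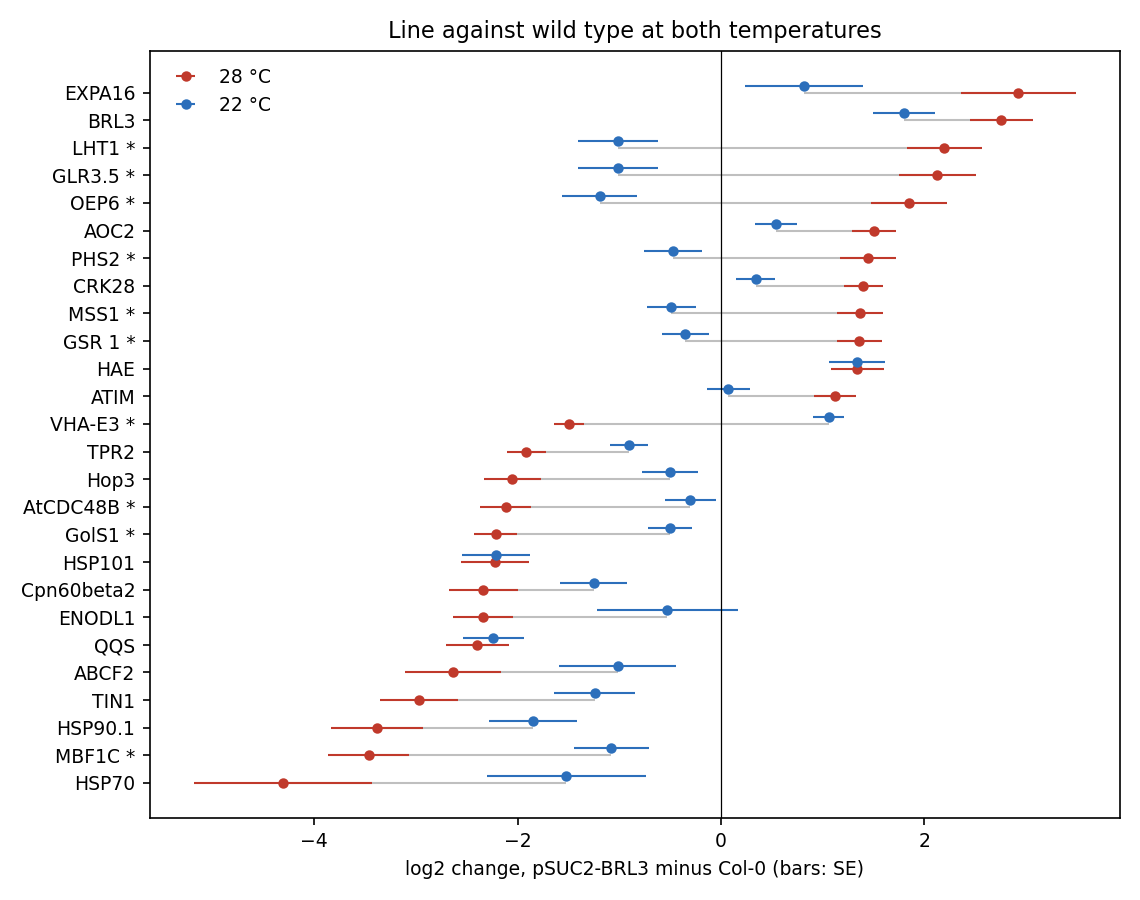
Points show the log2 difference of pSUC2-BRL3 over Col-0 at 28 °C and at 22 °C for the named genes, with bars of 1 SE, and an asterisk marks genes whose difference between temperatures had an adjusted p under 0.05. HSP101 and QQS have nearly equal values at both temperatures, whereas VHA-E3 is at -1.49 at 28 °C and 1.06 at 22 °C.

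The remaining lists had few or no calls. None of 16 salicylic acid genes (median 0.32), 16 indole glucosinolate genes (-0.02), 22 ethylene genes (-0.06), 18 iron deficiency genes (0.25), 16 phosphate and sulfur starvation genes (-0.71) or 18 flavonoid genes (-0.13) was called. Of 20 cell cycle genes 1 was higher, the histone gene HIS4 (AT2G28740), at 14.1 and 14.8 CPM in Col-0 and 24.7 and 23.9 CPM in pSUC2-BRL3 (0.75, adjusted p = 0.0343), a call lost without any 1 of the 4 libraries (0.72 to 0.79). Of 17 osmoprotectant genes GolS1 alone was called. None of 13 shoot apex and stomatal genes (median -0.01) or 15 day and evening clock genes (0.27) was called. Among all 119 plastid-encoded loci 1 was higher and the median was -0.58. None of the 15 genes on the plastid-encoded list was called. Over the 21 lists with 0 calls in edgeR, 68 of 359 genes had an unadjusted p under 0.05, and DESeq2 called 14 higher and 11 lower, 4 of the higher ones on the cold-regulated list.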

How the data were processed

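The deposited table holds raw read counts per gene for 16 libraries of Arabidopsis hypocotyls, which the authors made with FastQC 0.11.2, Trimmomatic 0.38, HISAT2 2.1, featureCounts 1.6.2 and edgeR 3.34.1 on TAIR10, per the submitters' processing notes. No source used here states the annotation or strand setting of counting, so genes with overlapping, antisense or near-identical partners are uncertain. Of 33297 lines 1 names no gene (0.0013 to 0.0046% of counts) and was left out. Of 33296 genes 33011 matched RefSeq (TAIR10.1), the source of symbols, coordinates and promoters.

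Genes were kept with filterByExpr (minimum count 10, minimum total 15), scaled by TMM and fitted with edgeR 4.0.16 (R 4.3.3) quasi-likelihood over 16 libraries in 8 groups (8 residual degrees of freedom), two-sided, with Benjamini-Hochberg adjustment over 20505 genes and a threshold of 0.05. SE is the log2 difference divided by the square root of F. The fit was tested on simulated data. CPM is scaled by TMM, and values per library against the Col-0 mean use log2 CPM with a prior count of 2. Alternatives were DESeq2 1.42.0, other scaling, filters, gene sets and libraries, and a replicate block.

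Members and lists were chosen with earlier results of these data known. Named were BRL3, the 12 largest called rises and falls with a symbol, a group mean of 5 CPM or more and no overlap, up to 10 each that also held in every leave-one-out fit with replicates within 2-fold, up to 5 per list, and the 5 genes each way that split the pSUC2-BRL3 libraries most. Other called genes, THE1, MEB1, NAI2, HIP1 and SGT1A among them, and the families were added after values were seen. The sequence of 1 promoter match is not reported here.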

Additional observations from a re-analysis of the deposited data

Results flagged for a closer look

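The line's difference from Col-0 was not the same at 28 °C and 22 °C in 10 of 33 genes named by rule, by the interaction term of the edgeR fit. Over all genes tested this term was called for 400 (1.95%). All 33 were called at 28 °C, and that difference is part of the term. The share among them is therefore raised by how they were chosen and is a description. Values here are the log2 difference of pSUC2-BRL3 over Col-0 at 28 °C minus that at 22 °C, with 4 libraries at each temperature.

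Among genes higher in the line at 28 °C, the amino acid importer gene LHT1 had 3.21 (SE 0.54, adjusted p = 0.0196), the glutamate receptor-like gene GLR3.5 had 3.14 (SE 0.55, adjusted p = 0.0217) and the plastid envelope gene OEP6 had 3.04 (SE 0.53, adjusted p = 0.0217). The glucan phosphorylase gene PHS2 had 1.92 (SE 0.39, adjusted p = 0.0375), the hexose importer gene MSS1 had 1.85 (SE 0.33, adjusted p = 0.0229) and the glutamine synthetase gene GSR 1 had 1.71 (SE 0.32, adjusted p = 0.0279). At 22 °C the estimates of these 6 genes were all below 0, from -1.19 for OEP6 to -0.35 for GSR 1.

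Among genes lower at 28 °C, the coactivator gene MBF1C had -2.39 (SE 0.52, adjusted p = 0.046), the galactinol synthase gene GolS1 had -1.71 (SE 0.30, adjusted p = 0.0217), AtCDC48B had -1.81 (SE 0.35, adjusted p = 0.0312) and the proton pump gene VHA-E3 had -2.55 (SE 0.21, adjusted p = 0.00114). MBF1C (-1.08), GolS1 (-0.50) and AtCDC48B (-0.30) had estimates below 0 at both temperatures, and VHA-E3 was 1.06 at 22 °C.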

How the results depend on the processing

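The comparison gave 176 calls, 47 higher and 129 lower. DESeq2 gave 686 (273 and 413), the replicate number as a block 112 (20 and 92), a fit of the 4 libraries alone 46 (4 and 42) and one of the 8 libraries at 28 °C 421 (122 and 299). Leaving out 1 of the 4 libraries gave 14 to 299 calls (0 to 126 higher, 14 to 173 lower). Alternatives chosen after seeing the data gave 1051 (421 and 630) without BRL3ox replicate 2 at 22 °C, 727 (321 and 406) with pSUC2-BRL3 replicate 1 also left out, and 2158 (938 and 1220) with pSUC2-BRL3 replicate 2 left out in its place. Size factors of DESeq2 gave 175 calls, no filter 201 and nuclear coding genes alone 175. In these fits 0 of the 176 genes changed sign. The heat shock list's median of -0.74 moved to between -1.10 and -0.67 when 1 of the 4 libraries was left out, and to -1.10 without both BRL3ox replicate 2 at 22 °C and pSUC2-BRL3 replicate 1. It was -0.79 under the block. The cause of these shifts was not tested, beyond the fewer libraries by construction.

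Of 33 named genes all 33 kept their call under DESeq2, its size factors, no filter, nuclear coding genes and the 3 added alternatives. The block kept 24, the 4 libraries alone 12 and the 28 °C libraries 23. Deviations of same-numbered libraries from their group means had correlations over 0.1 in 8 of 28 pairs of groups (-0.29 to 0.27, and 0.12 for these groups). The median correlation was -0.0011, and the numbers were not taken as pairs. Correlations over all genes cannot show whether same-numbered libraries shared a batch that touched part of the genes. With 2 libraries per group the spread between libraries limits the calls, and LTI78, whose 2 libraries stood at 596 and 47.1 CPM, was not called at a difference of 3.89.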
